A study of Macaca mulatta with 16 samples.

Results

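Myostatin, its secreted antagonists and the activin receptors were followed in the eye-moving (extraocular) muscles of adult rhesus macaques. The members were 7 genes, MSTN, FST, FSTL1, FSTL3, ACVR1B, ACVR2A and ACVR2B, of 19044 gene symbols in all, taken by the symbol that the platform annotation gives to each probe set of the human array types U133A and U133B. They were measured by 18 of the 44928 probe sets, 13 on U133A and 5 on U133B. ACVR1B had 6 probe sets, FST and FSTL1 had 3 each, ACVR2A and ACVR2B had 2 each, and MSTN and FSTL3 had 1 each, on U133A. All 7 symbols are also gene symbols in the macaque RefSeq annotation.

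The 16 arrays fell into 4 groups, with 2 arrays per group on each array type. The orbital layer, on the side of the muscle that faces the orbital wall, and the global layer, on the side of the globe, were cut out by laser microdissection and their RNA was amplified with T7 polymerase. Medial rectus and lateral rectus, which turn the eye inward and outward, were taken whole and processed by the standard protocol. The labels name no animals, sexes or strains, so a p-value here reflects the spread among these samples alone, which may be technical. P-values may be too small where arrays of one group share an animal, and too large where arrays of compared groups share one. Layer RNA was run on both array types per the labels, and values from U133A and U133B are therefore not set out as independent replicates of each other. In such bulk samples, fewer cells of a type and less RNA per cell cannot be told apart.

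Myostatin is a secreted ligand of the transforming growth factor beta family that is made by muscle fibres and limits muscle mass in mammals. It binds the type II activin receptors, encoded by ACVR2B and ACVR2A, which recruit a type I receptor such as the one encoded by ACVR1B, and the pair signals through the proteins SMAD2 and SMAD3. Follistatin (FST) and the related FSTL3 protein wrap around myostatin and activins outside the cell and keep them from their receptors, whereas the FSTL1 protein shares the name and a follistatin-like domain but belongs with the SPARC-related matrix proteins.

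On U133A, the labels of orbital layer replicate 1 conflict, with "orbital" in the title and "global" in the source name. It was grouped by title. MYH3, the embryonic myosin heavy chain, read 85295 on that array and 78367 on the other orbital array, against 3086 and 11011 on the global arrays, so that the array stood with the other orbital array on this gene, which was chosen with earlier results known. On U133B, the source name of global layer replicate 1 names no layer. Fibre markers were bright in all groups, with a summed intensity of the 8 listed genes of 556393 to 584601 in the orbital layer, 558505 to 621485 in the global layer, 601260 to 610699 in medial rectus and 650847 to 751010 in lateral rectus on U133A. Of the 4 satellite cell markers, PAX7 was at or below 146 intensity units, the floor set for the test, on all arrays of the orbital layer, the global layer and medial rectus. On U133A the 4 summed to 2871 to 3718 in the orbital layer and 2801 to 3407 in the global layer. Their sums were 4910.5 to 6203 in medial rectus and 4591 to 6124 in lateral rectus. For layers minus whole muscle, CDH15 and NCAM1 had log2 differences of −1.54 and −1.05 there, and MYF5 one of 0.07. NCAM1, the 1 marker measured on U133B, had the opposite sign (1.21). It read 12681 to 19181 for orbital samples, 10042 to 13736.5 for global samples, 4859 to 6808 for medial rectus and 4247 to 8304 for lateral rectus. Beta-actin's signal at the 3' end over that at the 5' end was 2.84 to 5.87 in the layers and 0.716 to 1.04 in whole muscle on U133A, and 3.54 to 5.29 and 0.512 to 0.933 on U133B. Values below are intensities as the authors scaled them per array, and the number of arrays limits their precision.

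The ligand came first. MSTN had 348 and 243 intensity units in orbital samples, compared with 1086 and 2242 in global samples. Medial rectus had 890 and 459.7 and lateral rectus had 783 and 567.5. Both orbital arrays lay below all 6 others, and both global arrays lay above all 6 others. In order of the group means, the global layer (1664 ± 817, SD, n = 2 as for all group means here) was followed by lateral rectus (675 ± 152), medial rectus (675 ± 304) and the orbital layer (295 ± 74.2). The ranges of medial and lateral rectus overlapped, while those of the other neighbours in this order did not.

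Between the layers, MSTN was 5.37-fold lower in the orbital layer, a log2 difference of −2.42 ± 0.46 (SE). The closest pairing of an orbital with a global array was 3.12-fold apart and the farthest 9.23-fold, while arrays of one layer differed by 1.43-fold (orbital) and 2.06-fold (global). The difference did not pass the threshold of adjusted p under 0.05 (adjusted p = 0.103 in limma, Benjamini-Hochberg over 9532 probe sets), and the probe set ranked at position 68 by p. Leaving out an array makes an arm of 1 array, which is assumed to vary like the other group, so the spread then comes from that group alone and from the variance shared over probe sets. In such fits the adjusted p was 0.0032 without orbital layer replicate 1, 0.0247 without orbital layer replicate 2, 0.0383 without global layer replicate 1 and 0.112 without global layer replicate 2 (range over all alternatives 0.0032 to 0.587). The log2 difference stayed negative in all 12 alternatives, from −2.95 to −1.86. MSTN passed the filter on dim probe sets in this comparison by way of the global arrays, since both orbital values lay under the filter of 654 units.

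**Figure D1:**
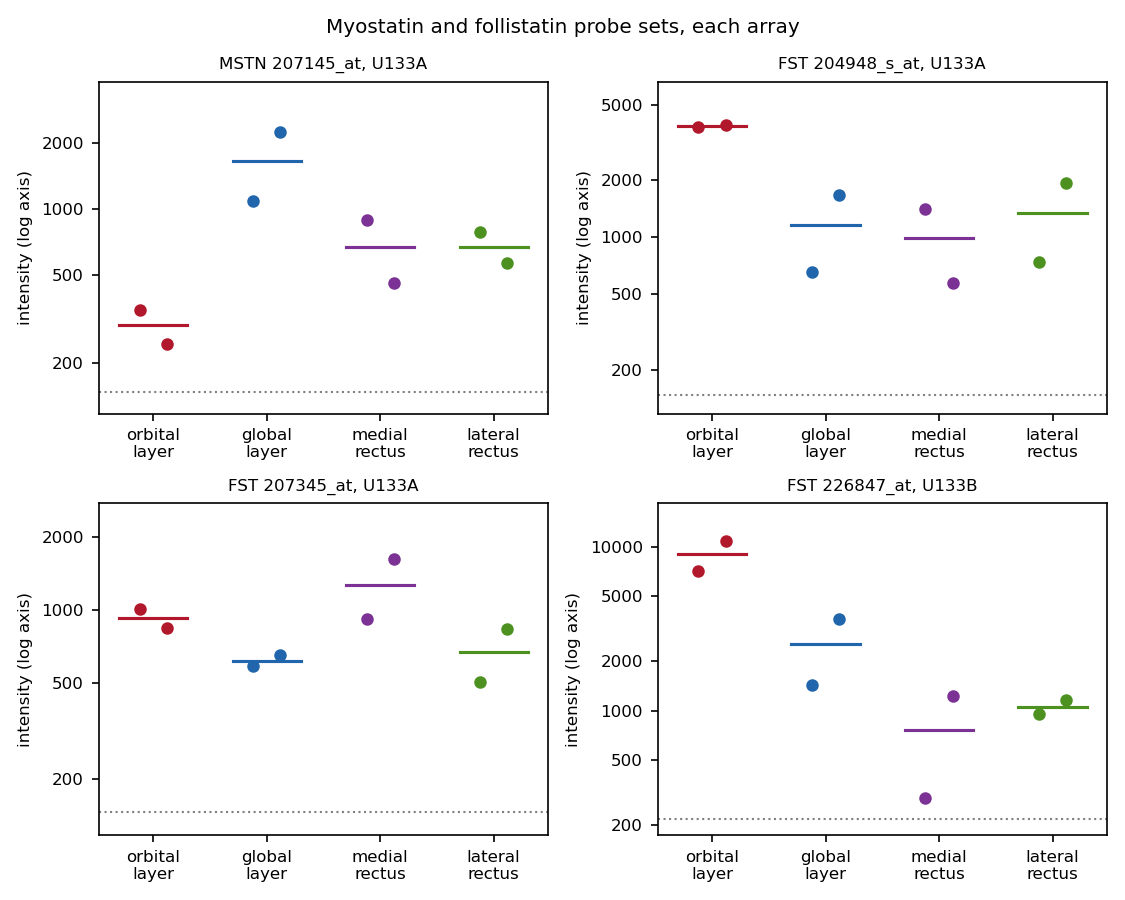
Intensity (log axis) of the MSTN probe set and the 3 FST probe sets on each array, by group; points are arrays, bars are means of 2 arrays and the dotted line is the floor of the table. MSTN is lowest on the 2 orbital arrays (348 and 243), and 2 FST probe sets are highest on them.

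Among the antagonists, FST was the one with the largest differences between the layers. Probe set 204948_s_at on U133A read 3843 and 3917 in orbital samples, compared with 659 and 1665 in global samples. It read 1413 and 577 in medial rectus and 737 and 1946 in lateral rectus. Both orbital arrays lay above all 6 others, and the other 3 groups overlapped each other. On U133B, probe set 226847_at read 7103 and 10903 in orbital samples, compared with 1438 and 3642 in global samples. It read 294 and 1235 in medial rectus and 954 and 1157 in lateral rectus. There the orbital layer was again highest, followed by the global layer and then by the 2 whole muscles, which overlapped.

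The orbital layer was 3.70-fold above the global layer on 204948_s_at (log2 difference 1.89 ± 0.42) and 3.84-fold above it on 226847_at (1.94 ± 0.46). Neither passed, with adjusted p = 0.188 and 0.335 in limma. The closest pairings of arrays were 2.31-fold and 1.95-fold apart. The orbital arrays were 1.02-fold and 1.53-fold apart from each other on these 2 probe sets, and the global arrays 2.53-fold on each. With arms of 1 array, as for MSTN, the adjusted p in limma without global layer replicate 2 was 0.00677 on 204948_s_at and 0.0407 on 226847_at, and without global layer replicate 1 it was 0.143 and 0.378 (ranges over all alternatives 0.00677 to 0.69 and 0.0407 to 0.696). Without orbital layer replicates 1 and 2, 204948_s_at had log2 differences of 1.90 and 1.88 (adjusted p = 0.0183 and 0.0272 in limma, with the spread taken from the global arrays), and 226847_at had 2.25 and 1.63 and did not pass.

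The other FST probe set, 207345_at on U133A, gave a smaller difference. It read 1012 and 840.2 in orbital samples, compared with 583 and 647 in global samples, a log2 difference of 0.59 ± 0.34 (adjusted p = 0.619 in limma). Both global values lay under the filter, so that this probe set was tested by way of the orbital arrays. Medial rectus had 917 and 1625 and lateral rectus had 503.5 and 835 on it. The highest of these 8 values was therefore from medial rectus and not from the orbital layer. All 3 FST probe sets had the orbital arrays above the global arrays.

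FSTL1, which is made mainly by mesenchymal cells, was bright in every group on 208782_at of U133A. It read 13898 and 11716 in orbital samples, compared with 8232.5 and 9776.5 in global samples. Medial rectus had 9822 and 6111.5 and lateral rectus had 7858 and 7449. The orbital arrays were the 2 highest, and the global layer overlapped medial rectus. The orbital layer was 1.42-fold above the global layer (log2 difference 0.51 ± 0.24), which did not pass (adjusted p = 0.556 in limma). On U133B, 230744_at read 1271 and 1230 in orbital samples, compared with 1374 and 842 in global samples, a log2 difference of 0.22 ± 0.45 with overlapping arrays. The third FSTL1 probe set, 240891_at, read 195 to 294 in the orbital layer and 129 to 200 in the global layer, near the floor of 218 units, and was below the filter.

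FSTL3 was dim and variable. It read 273.5 and 623 in orbital samples, compared with 623 and 638 in global samples, and was below the filter between the layers. Medial rectus had 1107 and 1688.5, against 859 and 192 in lateral rectus. The medial arrays were the 2 highest of the 8.

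The summed markers of some other cells and one RNA measure did not overlap between the layers on U133A. All 10 listed fibroblast and matrix genes were measured on U133A, with 9 higher in the orbital layer and none past the threshold (median log2 difference 0.40, against −0.04 over all probe sets tested). Their summed intensity was 312716 to 351680 in the orbital layer and 258658 to 259358 in the global layer, and none of them was at the floor throughout a layer. On U133B, the 5 genes measured summed to 14344 to 21873 in the orbital layer and 16806 to 18177 in the global layer, which overlap. The 6 endothelial markers summed to 13410 to 15054 in the orbital layer and 17126 to 22282 in the global layer on U133A. Of the 5 tested there, 4 were lower in the orbital layer, 1 was higher and none passed. Only VWF, which averaged 5201.5 in orbital and 7759 in global samples, did not overlap between the layers. On U133B, 1 endothelial gene was measured, with 202 to 286 in the orbital layer and 198 to 224 in the global layer, which overlap. Of the 5 adipocyte markers, ADIPOQ, LEP and PLIN1 were at the floor on all layer arrays of U133A, and the 5 summed to 8250 to 22194 in the orbital layer and 16364 to 19585 in the global layer. FABP4, a fatty acid binding protein of adipocytes and capillary endothelium, did not overlap between the layers on either array type. It averaged 1464 in orbital samples and 4802 in global samples on U133A (log2 difference −1.74 ± 0.46, adjusted p = 0.300 in limma), and 1128 in orbital samples and 3694 in global samples on U133B (−1.86 ± 0.55, adjusted p = 0.484). On U133A the 3'/5' ratio of beta-actin was 5.30 and 5.87 for orbital samples, compared with 2.84 and 2.88 for global samples. On U133B it was 5.29 and 4.43 for orbital samples, compared with 3.54 and 3.61 for global samples. The same ratio of GAPDH overlapped between the layers, with 1.73 and 2.00 for orbital samples and 2.92 and 1.497 for global samples on U133A, and 2.49 and 3.74 for orbital samples and 4.33 and 2.04 for global samples on U133B. Their part in the layer differences of MSTN, FST and FSTL1 was not tested.

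**Figure D2:**
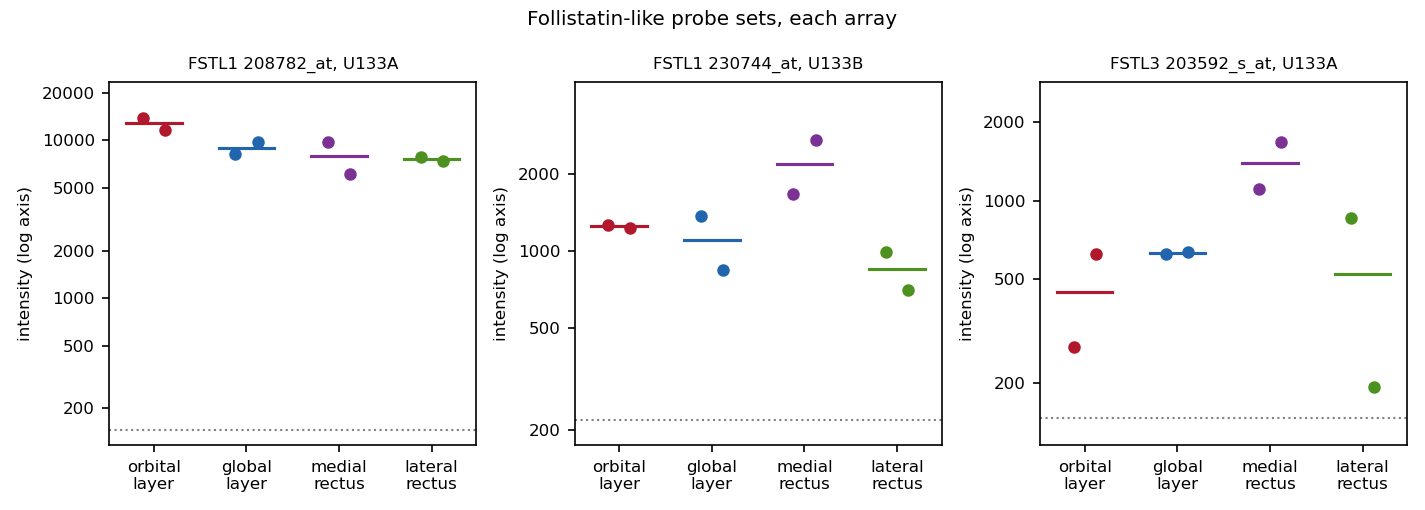
Intensity (log axis) of 2 FSTL1 probe sets and the FSTL3 probe set on each array, by group; points are arrays, bars are means of 2 arrays and the dotted line is the floor of the table. FSTL1 208782_at is highest on the 2 orbital arrays (13898 and 11716), and FSTL3 is highest on the 2 medial rectus arrays (1107 and 1688.5).

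Of the type II receptors, ACVR2A gave unlike readings on its 2 probe sets. On U133B, 228416_at read 4337 and 6877 in orbital samples, compared with 16306 and 10047.5 in global samples. It read 5163 and 2747 in medial rectus and 4393 and 4669 in lateral rectus. The global arrays were the 2 highest, and the other 3 groups overlapped. The orbital layer was 2.34-fold below the global layer (log2 difference −1.23 ± 0.35), which did not pass (adjusted p = 0.455 in limma). On U133A, 205327_s_at read 844 and 1407 in orbital samples, compared with 977 and 1282 in global samples, a log2 difference of −0.04 ± 0.35. Its highest group was lateral rectus, with 2601 and 2179.

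ACVR2B, the receptor with the higher affinity for myostatin, did not separate the layers by much. On U133A, 220028_at read 1899 and 2062 in orbital samples, compared with 1590.4 and 1723 in global samples, which do not overlap. The log2 difference was 0.26 ± 0.25 (adjusted p = 0.767 in limma). Medial rectus had 1736 and 2007 and lateral rectus had 2685 and 1388 on it. On U133B, 236126_at read 6091 and 6571 in orbital samples, compared with 6794 and 5456 in global samples, a log2 difference of 0.06 ± 0.27 (adjusted p = 0.981 in limma).

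For the type I receptor ACVR1B, 2 of the 6 probe sets were above the filter in all 3 comparisons. On 213198_at the orbital layer had 4031 and 6036, against 7957 and 6595 in the global layer. The arrays did not overlap, and the log2 difference was −0.55 ± 0.28 (adjusted p = 0.582 in limma). Medial rectus had 3781 and 5010.4 and lateral rectus had 5452 and 4672, within or near the range of the orbital layer. On 205209_at the orbital layer had 1628 and 2245, against 1071 and 2283 in the global layer (log2 difference 0.29 ± 0.39). Medial rectus had 1955.5 and 1425 and lateral rectus had 1248 and 1550.4 on it.

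The other 4 ACVR1B probe sets were dim in the layers. 208219_at was at the floor on all 4 layer arrays and on 3 of the 4 whole-muscle arrays. 208222_at read 436 and 265 in orbital samples, compared with 69.2 and 57.4 in global samples, and 144 to 1847 in whole muscle. 208223_s_at was below the floor on both orbital arrays and read 253 and 185 in global samples. In whole muscle it read 489 to 1075 and passed the filter. 208218_s_at lay between 74.2 and 592 on the 8 arrays.

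**Figure D3:**
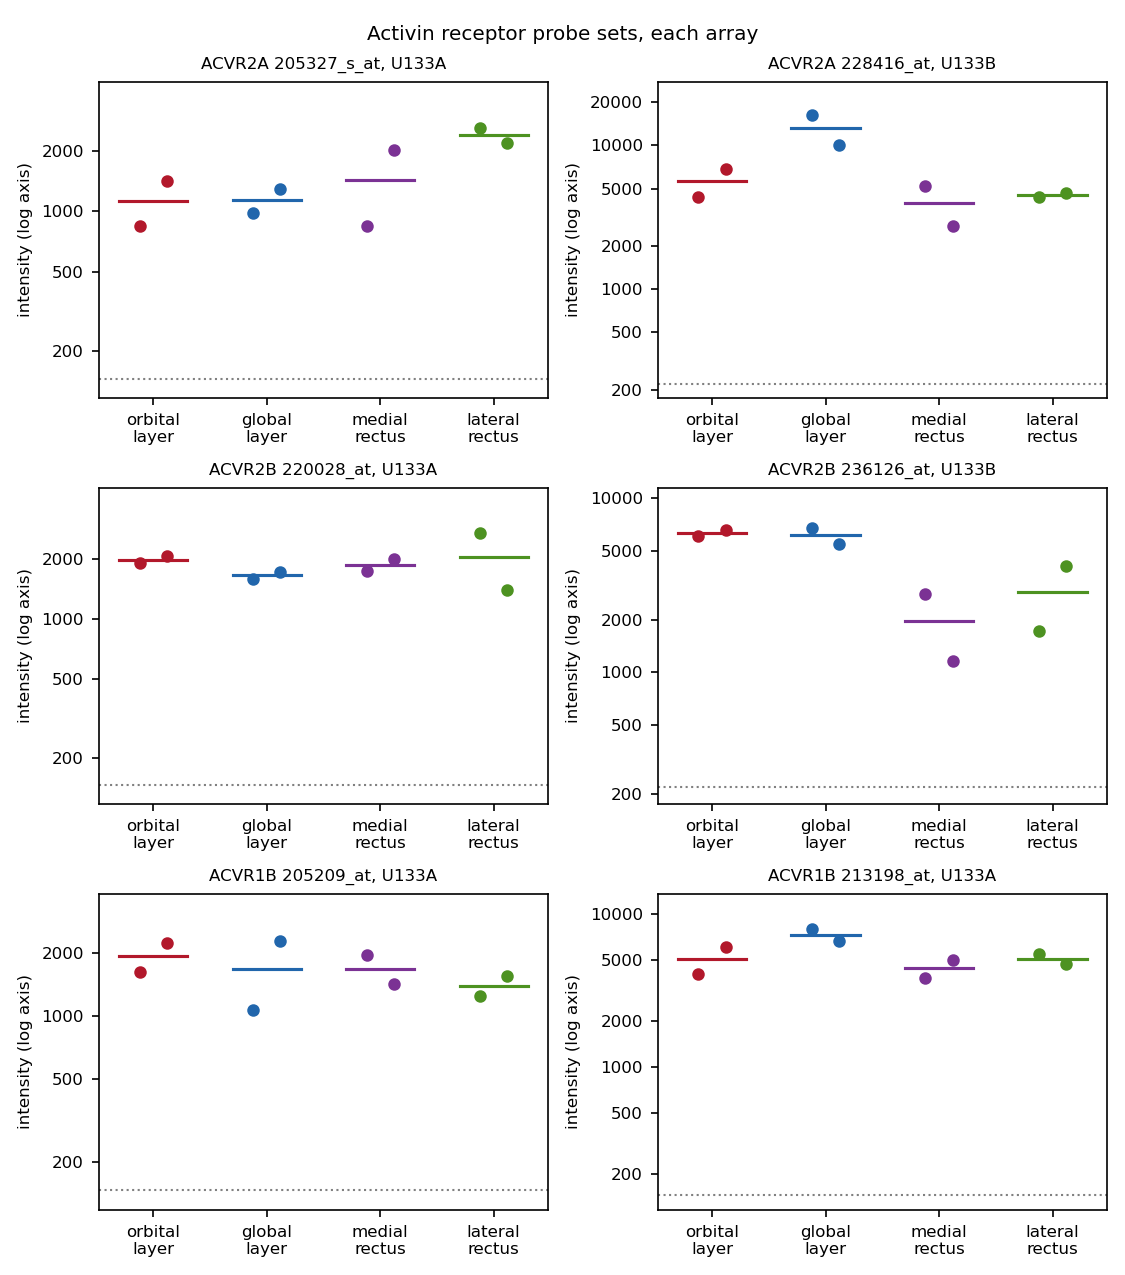
Intensity (log axis) of the ACVR2A, ACVR2B and 2 of the ACVR1B probe sets on each array, by group; points are arrays, bars are means of 2 arrays and the dotted line is the floor of the table. The 2 ACVR2A probe sets differ, with the global layer highest on 228416_at (16306 and 10047.5) and lateral rectus highest on 205327_s_at (2601 and 2179).

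Counted over the members, 8 of 13 probe sets on U133A and 4 of 5 on U133B passed the filter between the layers, and none of these 12 was called. Over all probe sets tested, 0.409% were called on U133A and 0.021% on U133B. Unadjusted p was under 0.05 for MSTN (0.000737) and for FST (0.00199 on 204948_s_at) on U133A, and for FST (0.00294) and ACVR2A (0.00791) on U133B. The layers did not overlap on 6 of 8 tested member probe sets of U133A, against 41.9% of all probe sets tested, and on 2 of 4 of U133B, against 38.6%. The groups were at least 2-fold apart in every pairing of arrays for 2 of the 8 on U133A, MSTN and FST 204948_s_at, against 1.02% of all probe sets tested there. None of the 4 on U133B met this rule, against 1.22%. MSTN and FST 207345_at entered these counts by way of the layer in which they were brighter, so the counts describe the probe sets that passed the filter and are no support for a difference. Without orbital layer replicate 1, the array with conflicting labels, MSTN and FST 204948_s_at had an adjusted p under 0.05 on U133A, with 1 orbital array and the spread of the global arrays alone, where 0.913% of all probe sets were called. FST 207345_at, FSTL1 208782_at, ACVR1B 213198_at and ACVR2B 220028_at then had log2 differences of 0.45, 0.39, −0.26 and 0.32, and none of them passed.

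Medial and lateral rectus were compared to ask whether muscles with opposite actions differ. None of the 9 member probe sets tested on U133A and of the 3 tested on U133B passed in limma, and the share called over all probe sets was 0% on each. No member had an unadjusted p under 0.05. The smallest p was that of FSTL3, 3.36-fold higher in medial rectus (log2 difference 1.75 ± 0.78, adjusted p = 0.999 in limma). Without lateral rectus replicate 2, which had the value of 192, its difference was 0.67, and without lateral rectus replicate 1 it was 2.83. FSTL1 on 230744_at of U133B read 1674 and 2713 in medial rectus, against 995 and 703 in lateral rectus (log2 difference 1.35 ± 0.61, adjusted p = 0.991). The bright FSTL1 probe set of U133A differed by 0.02 ± 0.26.

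ACVR2A differed by −0.87 ± 0.43 on U133A and by −0.27 ± 0.37 on U133B, with no call on either. FST differed by −0.41 ± 0.62 on 204948_s_at and by 0.91 ± 0.54 on 207345_at, in opposite directions. ACVR2B differed by −0.05 ± 0.37 and −0.55 ± 0.59. The 3 ACVR1B probe sets tested lay between −0.21 and 0.26. MSTN was below the filter here. With no filter its difference was −0.06 ± 0.58 (adjusted p = 1.00 in limma). Arrays of medial and lateral rectus did not overlap on 3 of 9 tested member probe sets on U133A, against 28.6% of all, and on 1 of 3 on U133B, against 32.1%. FSTL3 and FST 207345_at entered the U133A count by way of medial rectus, so the count is no support for a difference.

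**Figure D4:**
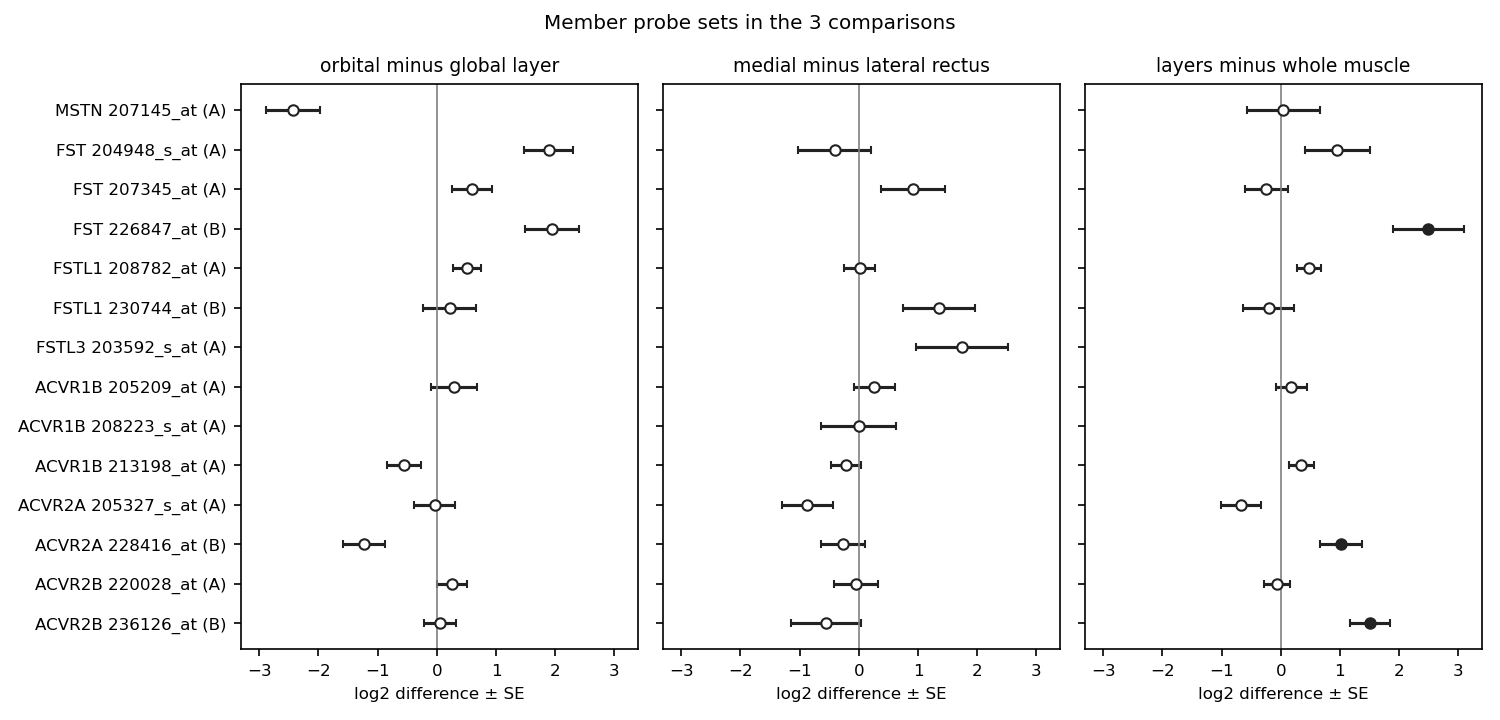
Log2 difference ± SE in limma of each member probe set that passed the filter, for orbital minus global layer, medial minus lateral rectus and layers minus whole muscle; filled points have adjusted p under 0.05 and A or B names the array type. Filled points are found only for layers minus whole muscle, at 2.50 (FST), 1.02 (ACVR2A) and 1.51 (ACVR2B), all on U133B.

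The microdissected layers were set against whole muscle as well, with 4 arrays on either side. Tissue and RNA amplification cannot be told apart in this comparison, and 48.7% of all probe sets tested on U133A and 42.8% on U133B were called. On U133B, 3 of 4 tested member probe sets rose in the layers. FST on 226847_at had 1438 to 10903 in the layers and 294 to 1235 in whole muscle, without overlap (log2 difference 2.50 ± 0.60, adjusted p = 0.00589 in limma). Over the whole-muscle arrays alone it was below the filter, so it was tested by way of the layers. ACVR2B on 236126_at had 5456 to 6794 in the layers and 1157 to 4071 in whole muscle, also without overlap (1.51 ± 0.34, adjusted p = 0.00396). ACVR2A on 228416_at had 4337 to 16306 in the layers and 2747 to 5163 in whole muscle, which overlap (1.02 ± 0.35, adjusted p = 0.0346). The ACVR2A call was lost under quantile normalization, at 0.66 (adjusted p = 0.171 in limma), with no filter (0.110), with no intensity trend (0.0664) and with array weights (0.0545). It was also lost without either global layer array, either lateral rectus array or medial rectus replicate 2, with differences of 0.70 to 1.08 and adjusted p of 0.0515 to 0.0976 in limma (range over all alternatives 0.00778 to 0.171). The FST and ACVR2B calls held in all alternatives run. Arrays did not overlap on 2 of the 4 tested member probe sets of U133B, against 40.7% of all probe sets tested.

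None of the 8 member probe sets tested on U133A passed in limma, where 1 had an unadjusted p under 0.05, and none had groups that did not overlap, against 43.9% of all probe sets tested. The probe sets of the same 3 genes on that array type gave other values. ACVR2B on 220028_at differed by −0.07 ± 0.22 (adjusted p = 0.814 in limma), with 1590.4 to 2062 in the layers and 1388 to 2685 in whole muscle. ACVR2A on 205327_s_at differed by −0.67 ± 0.33 (adjusted p = 0.113), opposite in sign to 228416_at. FST differed by 0.95 ± 0.55 on 204948_s_at and by −0.24 ± 0.36 on 207345_at. MSTN differed by 0.04 ± 0.61, since the layers held both its highest and its lowest values. FSTL1 on 208782_at was 1.39-fold higher in the layers (log2 difference 0.47 ± 0.20, adjusted p = 0.0678), and the difference was 0.06 under quantile normalization. It passed with array weights (0.54, adjusted p = 0.0323), without global layer replicate 1 (0.60, adjusted p = 0.0245) and without medial rectus replicate 1 (0.59, adjusted p = 0.0389) in limma. Without global layer replicate 1, FST on 204948_s_at also passed (1.49, adjusted p = 0.0169). Without orbital layer replicate 1, ACVR1B on 213198_at passed (0.54, adjusted p = 0.0405, against 0.35 ± 0.22 with it), and without medial rectus replicate 1, ACVR2A on 205327_s_at passed (−1.03, adjusted p = 0.00655).

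Of the members below the filter, 2 passed in limma when no filter was set. Their layer arrays were partly at the floor, 2 of 4 on 208223_s_at and 3 of 4 on 240891_at, so that the differences and their errors depend on the floor value. ACVR1B on 208223_s_at had a log2 difference of −2.03 ± 0.31 (37.8 to 253 in the layers against 489 to 1075 in whole muscle, adjusted p = 0.00409), and FSTL1 on 240891_at one of −1.28 ± 0.22 (129 to 294 in the layers against 446 to 757.5 in whole muscle, adjusted p = 0.00731). With no filter, 29.6% of all probe sets were called on U133A and 22.6% on U133B. The median difference of all probe sets tested was −0.18 on U133A and −0.21 on U133B, and 0.01 and −0.03 under quantile normalization. Under quantile normalization FST on 226847_at was at 2.66, ACVR2B on 236126_at at 1.45 and ACVR2A on 228416_at at 0.66.

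The other genes of the pathway were followed in 4 lists. Between the layers none of their tested members passed on either array type, where 0.283% of all probe sets on U133A were called higher and 0.126% lower. Of 7 other ligand genes tested on U133A, 6 were lower and 1 higher in the orbital layer (median log2 difference −0.19, against −0.04 for all probe sets). INHA, the inhibin alpha subunit, had 3374 and 3296 in orbital samples, compared with 7741 and 7067 in global samples (−1.15 ± 0.24, adjusted p = 0.149 in limma). TGFB3, a transforming growth factor beta ligand, differed by 0.50 ± 0.30. On U133B, INHBA, the subunit of activin A, a ligand that follistatin binds, had 3576 and 3056 in orbital samples, compared with 1233 and 1491 in global samples (1.29 ± 0.32, adjusted p = 0.371). GDF11, the closest relative of myostatin, differed by 0.20 ± 0.41.

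Among genes that bind or process the ligands, 7 of 10 tested on U133A were higher in the orbital layer and 3 lower (median 0.27). FMOD, the matrix proteoglycan fibromodulin, had 3616 and 2326 in orbital samples, compared with 1450.4 and 1279.8 in global samples (1.09 ± 0.30, adjusted p = 0.303 in limma). TLL2, a protease of the family that activates latent myostatin, had 313 and 619 in orbital samples, compared with 1092 and 1243 in global samples (−1.41 ± 0.42, adjusted p = 0.347 in limma). Both orbital values lay under the filter of 654, so TLL2 was tested by way of the global arrays. On U133B, 2 of 5 were higher and 3 lower (median −0.06), with PCSK6, a proprotein convertase, at 0.92 ± 0.46 and WFIKKN2, another myostatin-binding protein, at −1.23 ± 0.68.

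Of the other receptors of the family, 5 of 6 tested on U133A were higher in the orbital layer (median 0.23). ACVR1, a type I receptor, differed by 0.50 ± 0.25 and TGFBR2, the type II receptor for transforming growth factor beta, by 0.40 ± 0.25. On U133B, 2 of 4 were higher (median 0.03), with BMPR1B at 0.62 ± 0.26 and BMPR2 at −0.72 ± 0.29, both receptors for bone morphogenetic proteins. Intracellular members were split, with 5 of 9 higher on U133A (median 0.03) and 6 of 10 on U133B (median 0.07). SMAD4, the partner of the other SMAD proteins, had 597 and 555 in orbital samples, compared with 1113 and 1176 in global samples on U133A (−0.99 ± 0.32, adjusted p = 0.384 in limma). Both orbital values lay under the filter of 654, so SMAD4 was tested by way of the global arrays. FKBP1A, which binds type I receptors, differed by 0.59 ± 0.23. On U133B, SMURF1, a ubiquitin ligase that acts on SMAD proteins and receptors, differed by −2.57 ± 0.69 with 1 orbital array at the floor, and SMAD9 by 0.81 ± 0.29. The orbital arrays averaged 528 for SMURF1, under the filter of 803, so it was tested by way of the global arrays.

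Between medial and lateral rectus none of the pathway genes passed, as none did over all probe sets. Their list medians lay between −0.14 and 0.12. On U133A, INHBB, the subunit of activin B, had 534 and 321 in medial rectus, against 1276 and 914 in lateral rectus (−1.38 ± 0.64), and BMP2 differed by 1.69 ± 0.83. Both medial values of INHBB lay under the filter of 654, so INHBB was tested by way of lateral rectus. FURIN, the convertase that cleaves pro-myostatin, and LTBP4, a latency protein, differed by 0.43 and 0.25. BAMBI, a decoy receptor, and TGFBR2 differed by −0.56 and −0.24, and SMAD4 and SMAD3 by −0.46 and 0.37. On U133B, INHBA and TGFB2 differed by −0.53 and 0.18, LTBP3 and LTBP2 by −0.88 and 0.14, TGFBR3 and BMPR2 by −0.42 and 0.24, and SMURF1 and SKIL by 1.32 and 0.58.

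In the layers against whole muscle, many pathway genes passed, against a background of 18.6% higher and 30.1% lower on U133A and 20.5% and 22.3% on U133B. Of 8 ligands tested on U133A, 6 fell in the layers, TGFB2 (−2.19 ± 0.33), INHBC, TGFB3, BMP6, BMP5 and INHA (−0.82 ± 0.30), and of 3 on U133B GDF11 fell (−1.05 ± 0.34). TGFB2 gave the other sign on U133B (0.54 ± 0.21, adjusted p = 0.0565 in limma), where the layers lay above whole muscle without overlap. Of 10 binding and processing genes on U133A, PCSK5 (3.14 ± 0.22), LTBP3 (1.89 ± 0.43) and LTBP4 (1.27 ± 0.37) rose, and PCSK6 (−1.84 ± 0.28) and LTBP2 (−0.73 ± 0.27) fell. Of 5 on U133B, LTBP3 rose by 1.36 ± 0.51 and DCN, the proteoglycan decorin, fell by 1.68 on the log2 scale. This DCN probe set averaged 830 in the layers and 2523 in whole muscle. The far brighter DCN probe set of U133A averaged 67703 in the layers and 68999 in whole muscle, a log2 difference of −0.03 ± 0.13. Among receptors, BMPR2 (2.65 ± 0.24) and ACVR1 (1.10 ± 0.19) rose on U133A, 2 of 6, and TGFBR3 (2.05 ± 0.25), TGFBR1 (1.33 ± 0.22) and BMPR1B (1.06 ± 0.23) on U133B, 3 of 4. On the other array type, TGFBR3 (0.16 ± 0.26 on U133A) and BMPR2 (0.87 ± 0.38 on U133B) did not pass. No receptor of the list passed as lower, and BAMBI was lower on U133A without passing (−0.51 ± 0.33).

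The medians of the intracellular list had opposite signs on the array types in that comparison. On U133A, ZFYVE9, SMAD1, SMURF1 and SMAD4 fell and SKI rose (0.83 ± 0.29), of 10 tested (median −0.46). SMAD1 and SMURF1 averaged 538 and 476 in the layers, under the filter of 654. They were tested by way of whole muscle, so their calls are no support for a difference. On U133B, SMAD2 (2.92 ± 0.40), SMAD4, PMEPA1, SMURF2, SKIL, SMAD5, SMAD1 and SMAD9 rose, 8 of 10 tested (median 1.29). SMAD4 differed by −1.07 ± 0.30 on U133A and by 1.64 ± 0.23 on U133B, and SMAD1 by −1.46 ± 0.31 and 1.28 ± 0.34. SMAD2 (−0.45 ± 0.20 on U133A, adjusted p = 0.0867 in limma) and SKI (−0.33 ± 0.25 on U133B) also changed sign between the array types, without passing there. SMURF2 (0.46 ± 0.24 and 1.67 ± 0.27) and SMURF1 (−1.22 ± 0.29 and −1.01 ± 0.78) kept their sign. The other genes were not tested on both array types, so the medians cover partly different genes. The beta-actin 3'/5' ratio separated layers from whole muscle on each array type, and its part in these differences was not tested.

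**Figure D5:**
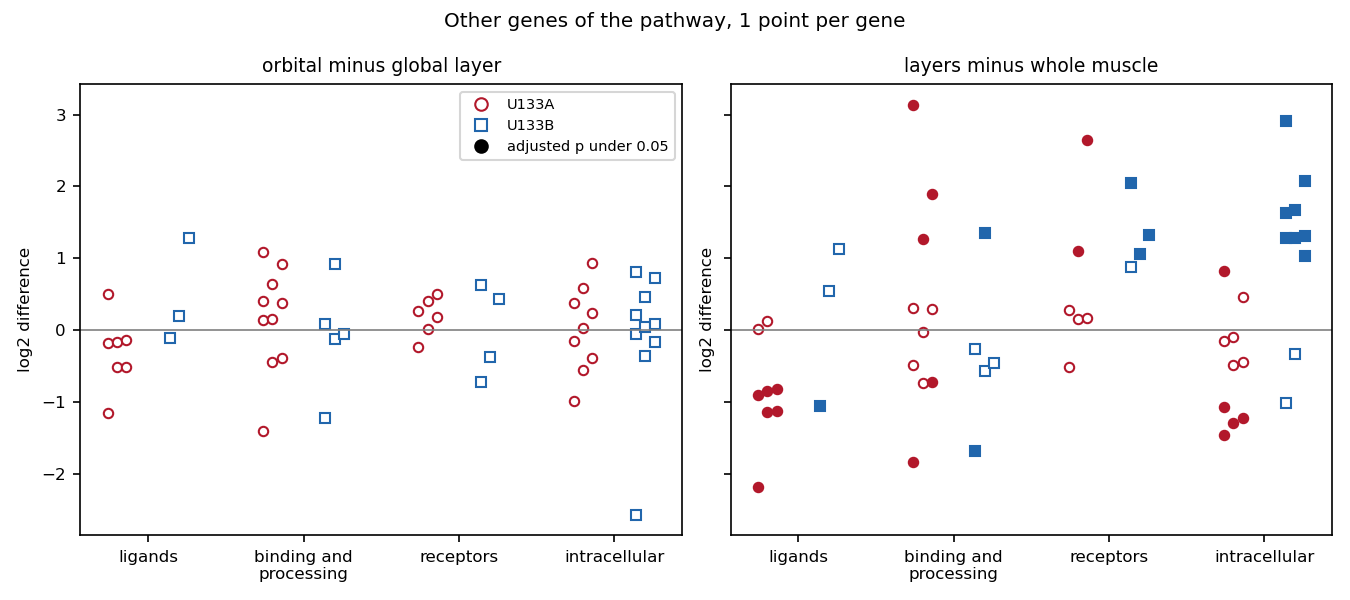
Log2 difference in limma of the other pathway genes, 1 point per gene and array type (brightest probe set above the filter in that comparison), in 4 lists. Filled points have adjusted p under 0.05. No point is filled for orbital minus global layer. For layers minus whole muscle, 8 of 10 intracellular genes on U133B passed as higher and 4 of 10 on U133A passed as lower.

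Likeness of patterns was described by Pearson's r of log2 values over the 8 arrays of a table, after the mean of the layer arrays and that of the whole-muscle arrays were subtracted. These values are the highest among 7899 to 9299 probe sets on 8 arrays, which share their scaling, and carry no test. The nearest to MSTN were AK6 (r = 0.987), SNX27 (0.982) and PPP1R1A (0.981), of which SNX27 was also among the nearest without that subtraction. The nearest to FST were USP9X (0.983), TIMM10 (0.983) and PLCB1 (0.971) on U133A and SPRN (0.977), LINC02871 (0.964) and SLC30A6 (0.953) on U133B. Those of FSTL1 were HLA-C (0.974), AUP1 (0.968) and NEK9 (0.967) on U133A and CFAP221 (0.990), NLK (0.977) and CCNB3 (0.973) on U133B.

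The nearest to ACVR1B were NCKIPSD (r = 0.982), TM4SF5 (0.981) and RBMX2 (0.976). Those of ACVR2A were ADNP (0.972), ARHGEF6 (0.963) and USE1 (0.961) on U133A and PITPNM3 (0.967), PGM2L1 (0.956) and PDZRN3-AS1 (0.948) on U133B. For ACVR2B they were STX16 (0.965), RPS6KA5 (0.951) and AXL (0.951) on U133A and ACSS1 (0.963), GID4 (0.959) and EIF2AK3-DT (0.958) on U133B. No gene was named for more than 1 member or on both array types. FSTL3 was below the filter over the 8 arrays and was not compared.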

How the data were processed

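Per the labels, only RNA of the microdissected layers went through T7 amplification. The deposited values are intensities on a linear scale, 1 per probe set, array and table. After trimming 2% at either end their mean was 1500.2 to 1500.7 on every array, the mark of a per-array scaling by the authors. Summary software and detection calls are not given in the sources used here.

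Arrays were set to a common trimmed mean, floored at a percentile of the pooled values, the 20th, that is at 146 on U133A and 218 on U133B, and log2 transformed. Probe sets were tested when their mean log2 value in a comparison was at least the median of the pooled values (654 and 803). Comparisons used limma 3.58.1 in R 4.3.3 with an intensity trend, per table, without control probe sets, with two-sided tests, Benjamini-Hochberg adjustment over all probe sets tested and a threshold of 0.05. The limma step was tested on simulated data. Figures were drawn with matplotlib 3.10.9 in Python 3.11.15.

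All member probe sets were described. Of each of 4 pathway lists, genes past the threshold were named, or else those with the 2 smallest p-values. Each gene was taken by its brightest probe set above the filter in that comparison, so its probe set could differ between comparisons. The 3 most alike genes per member were named. The members and lists were chosen with earlier results of these data known. Replicate numbers 1 and 2 come from the titles for the layers and for 4 of the 8 rectus arrays, and from the order of deposit for the others.

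Alternatives were quantile normalization, a filter at the 75th percentile or none, floors at the 5th and 40th percentile, variances with no intensity trend, a joint fit of all 4 groups, array weights, the replicate number as a term for the layers, and each array left out in turn. Probe sequences were not used here.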

Additional observations from a re-analysis of the deposited data

Results flagged for a closer look

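FSTL3 read 273.5 on orbital layer replicate 1 of U133A, while the other 3 layer arrays read 623 to 638. The gap was 0.972 of the range of the 4 layer arrays on the log2 scale, above Dixon's critical value for 4 values. Chance alone gives such a gap in about 1 in 20 groups. The array is the one whose labels conflict.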

How the results depend on the processing

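Between orbital and global layer, the number of member probe sets past the threshold was 0 on each array type, and 2 on U133A (MSTN and FST 204948_s_at, adjusted p = 0.0395 and 0.0302 in limma) and 1 on U133B (FST 226847_at, 0.0486) with the replicate number as a block. The replicate block also moved the share of all probe sets called to 0.965% and 0.273%. Deviations of same-numbered layer arrays correlated at 0.256 on U133A and 0.132 on U133B over the probe sets tested, with only 2 pairs, and the labels do not say that a number marks a shared animal, so whether they share an animal is not known. With single arrays left out, which leaves an arm of 1 array that is assumed to vary like the other group, the count was 1 to 2 on U133A and 0 to 1 on U133B, while 0.671% to 1.51% and 0% to 0.242% of all probe sets were called. For layers against whole muscle on U133A, 1 member probe set passed with no filter, 1 with array weights, and 0 to 2 with single arrays left out. On U133B the count was 2 to 3 throughout, and for medial against lateral rectus it was 0 in every alternative.

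Some signs turned. Under quantile normalization ACVR2A 205327_s_at between the layers had 0.017, and for layers against whole muscle FST 207345_at had 0.31, ACVR2B 220028_at 0.20 and FSTL1 230744_at 0.21. MSTN for layers against whole muscle had −0.18 with array weights and −0.53 to 0.54 with single arrays left out. The other ranges with single arrays left out that cross 0 were, between the layers, ACVR1B 205209_at (−0.26 to 0.84), ACVR2A 205327_s_at (−0.41 to 0.33), ACVR2B 236126_at (−0.10 to 0.21) and FSTL1 230744_at (−0.14 to 0.57). Between medial and lateral rectus they were ACVR1B 208223_s_at (−0.57 to 0.56), ACVR2A 228416_at (−0.72 to 0.19), ACVR2B 220028_at (−0.52 to 0.43), ACVR2B 236126_at (−1.19 to 0.084), FST 204948_s_at (−1.11 to 0.29) and FSTL1 208782_at (−0.32 to 0.36). For layers against whole muscle they were ACVR2B 220028_at (−0.22 to 0.10), FST 207345_at (−0.52 to 0.048) and FSTL1 230744_at (−0.51 to 0.14). The causes were not tested.

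The smallest two-sided p that an exact permutation of 2 against 2 arrays can give is 0.333, so calls between single groups rest on the variance that limma shares over probe sets. Of the 3 genes named as most alike to each member, 0 or 1 were named without the subtraction of means.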
